A study of Mus musculus with 2 samples.

Results

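Immediate-early genes are genes that cells can switch on within minutes of a stimulus, and 10 of them, Fos, Fosb, Fosl2, Jun, Junb, Jund, Ier2, Dusp1, Btg2 and Egr1, are described here among 21938 protein-coding genes. The set was chosen by the promoter and distal peaks of these same samples, as earlier results gave them, so every count and height below describes the genes and none is a test. In each library, their promoter peaks were the open sites within 1 kb of any annotated transcription start site (TSS) of the gene, and their distal peaks lay farther than 1 kb from every protein-coding TSS but no farther than 50 kb from one of the gene. By this rule the set had 35 promoter and 114 distal peaks in replicate 1, and 28 promoter and 38 distal peaks in replicate 2.

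Open chromatin was measured by DNase-seq, which maps sites that the enzyme DNase I cuts, in the gastrocnemius, a calf muscle, of B6CASTF1/J mice, the F1 hybrids of a C57BL/6 and a CAST line. There was 1 group of females aged 10 days with 2 libraries, labelled biological replicates 1 and 2, and no other treatment, genotype or age. Their labels read "3x Females", which points to a pool of animals in each. The libraries were called one by one, so a value of 1 library carries no replicate error, and the difference between the libraries is the replicate spread.

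The stricter peak list held 114758 peaks in replicate 1 and far fewer in replicate 2, as did the longer lists with 189128 and 46786. A peak was called shared where it and a peak from the second list had in common 50% or more of the length of one of them, which held for 16.7% of the stricter peaks in replicate 1 and 70.3% in replicate 2. The height of a peak is the deposited signal, which its values show in even steps per library, as if scaled to depth, though no label gives the scale. It had a median of 1.18 in replicate 1 and 1.48 in replicate 2, and heights are read within a library. Of 14 skeletal muscle marker genes, 8 had a promoter peak in replicate 1 and 5 in replicate 2, against 66.7% and 51.4% of all protein-coding genes. Actn3, Ckm and Mef2c were open in both, against 51% of all genes, and Des, Mb, Myog and Tnnt3 in neither. Promoter peaks were also present at 8 and 5 of 8 neuronal markers and at 0 of 6 macrophage markers in both libraries. They were present at 1 and 1 of 5 endothelial, 2 and 3 of 5 fibro-adipogenic and 2 and 2 of 5 Schwann cell markers. By these counts the muscle markers were open less often than all genes in each library, and the neuronal markers more often. The part of other cell types in the values below was not tested. In a tissue, fewer cells with an open site and less opening in each cell cannot be told apart.

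Fos, Fosb and Fosl2 encode proteins that pair with the products of Jun, Junb and Jund to form the transcription factor AP-1, and Egr1 encodes a zinc finger transcription factor. Ier2 encodes a nuclear protein induced by growth factors, Dusp1 a phosphatase that inactivates MAP kinases, and Btg2 an antiproliferative protein that binds the machinery that removes poly(A) tails from mRNA. Stimuli reach such genes mainly through the serum response factor, which binds the CArG box, and through CREB, which binds the cyclic AMP response element (CRE). In muscle, contraction and injury are known stimuli, and in mouse neurons Fos is known for several distal enhancers on both sides of the gene.

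The sequences that carry these elements in the open promoters are shown first, each on the strand of its gene with the element in capitals (GRCm38, mm10). Of 9 CArG boxes in promoter peaks, 5 were at Egr1, 1 at the far TSS group of Dusp1, and the other 3 are shown. They stood in open sites upstream of a Fos TSS (chr12:85473561-85473610, plus strand), upstream of a Fosb TSS (chr7:19310288-19310337, minus strand) and inside Junb near its second TSS (chr8:84976604-84976653, minus strand). The Fosb box lay in peaks of both libraries, and the Fos and Junb boxes in peaks of replicate 1 only.
Fos CArG: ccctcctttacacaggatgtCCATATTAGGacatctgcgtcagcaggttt
Fosb CArG: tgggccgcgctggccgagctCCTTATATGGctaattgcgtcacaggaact
Junb CArG: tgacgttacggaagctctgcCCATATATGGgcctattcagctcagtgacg

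The palindromic CRE, TGACGTCA, was present in the promoter peaks of 4 genes, Btg2 (chr1:134079294-134079341, minus), Dusp1 (chr17:26508588-26508635, minus), Ier2 (chr8:84662870-84662917, minus) and Jund (chr8:70698715-70698762, plus), with the CRE in capitals. That of Dusp1 lay in a peak of replicate 1 only, and the other 3 in peaks of both libraries.
Btg2 CRE: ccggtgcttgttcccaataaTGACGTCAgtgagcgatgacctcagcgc
Dusp1 CRE: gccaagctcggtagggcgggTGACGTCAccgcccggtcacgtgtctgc
Ier2 CRE: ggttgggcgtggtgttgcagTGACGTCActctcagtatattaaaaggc
Jund CRE: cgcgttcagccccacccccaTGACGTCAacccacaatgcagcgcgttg

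At Jun the capitals mark a match to the MEF2 consensus, a site for a factor central to muscle genes (chr4:95052226-95052275, minus). At Fos they mark the 5 letters TGACG of the CRE and the TATA box, TATAAA, just upstream of the first TSS (chr12:85473815-85473869, plus).
Jun MEF2: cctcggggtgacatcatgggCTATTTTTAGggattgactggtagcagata
Fos start: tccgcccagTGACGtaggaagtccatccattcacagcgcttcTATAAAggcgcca

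The first question was whether the promoters of these genes were open in muscle that no label describes as stimulated. All 10 genes had a promoter peak in replicate 1, against 66.7% of all protein-coding genes, and all 10 had one in replicate 2, against 51.4%. Both libraries had one at 51% of all genes. All 10 were also open among the tallest peaks of replicate 1, when as many were taken as replicate 2 had, against 49.6% of all genes. In 9 of the 10 a promoter peak of one library overlapped one of the other, against 45.1% of all genes, and the exception was Fos, whose peaks overlapped by less than the limit. The tallest promoter peak had a median height over the 10 genes of 17.0 in replicate 1 and 2.79 in replicate 2, against 6.30 and 2.03 for all genes with a promoter peak. The 10 genes and all genes differ in base composition too, which is given further on.

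Among the AP-1 genes of the Jun family, the tallest promoter peak of Jund reached 25.1 in replicate 1 and 2.97 in replicate 2. Only 1.80% of genes with a promoter peak were higher in replicate 1, and 19.2% in replicate 2. Jund is known as the member of the family that many cells express without a stimulus. Jun had 18.9 and 3.54, on a peak that lay over its single TSS in both libraries. All bases within 1 kb of the Jun TSS, 2001 bp, had an FDR of at most 0.05 in both libraries, and no other gene of the set was open over the whole of this window. Junb had its tallest peaks at different TSSs, with 9.17 in replicate 1 at the second TSS inside the gene and 2.39 in replicate 2 at the first.

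In the Fos family, Fosb had 15.7 in replicate 1 on a peak in its exon 780 bp from the nearest Fosb TSS, and 2.88 in replicate 2 on the upstream peak that holds the CArG box. Fosl2 had 10.9 and 2.39, with several overlapping peaks in replicate 2 that ran from its first TSS into the gene. Fos was the lowest of the 10 in replicate 1, at 4.13, and 64.0% of genes with a promoter peak were higher there. In replicate 2 it had 2.57, with 28.9% of genes higher. The Fos promoter was thus open in both libraries but stood lower than that of most open genes in replicate 1 only. Its first-TSS peaks, chr12:85473761-85473980 in replicate 1 and chr12:85473701-85473800 in replicate 2, met in part. By the authors' FDR intervals, 1648 bp in replicate 1 and 1191 bp in replicate 2 of the 3022 bp within 1 kb of a Fos TSS were open, and all 1191 bp of replicate 2 lay within those of replicate 1.

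Among the genes outside AP-1, Dusp1 had 19.2 and 4.11, on peaks that lay side by side, chr17:26508561-26508800 and chr17:26508801-26509000, and did not overlap. The Dusp1 pair that was shared lay downstream, with 5.03 and 3.01. Egr1 had its tallest peaks at different TSSs, with 18.4 in replicate 1 at the first and 3.96 in replicate 2 at the second, inside the gene. The peak of replicate 2 at the first TSS had 3.90, and 4 of the 5 Egr1 promoter peaks in replicate 1 were shared. Btg2 had 18.8 and 2.65 on 1 shared peak over its TSS. Ier2 had 9.23 and 2.69, likewise over its TSS. Dusp1, Egr1 and Jun were the highest 3 in replicate 2 and among the highest 5 in replicate 1. Over the 10 genes the heights of the libraries had a Spearman correlation of 0.74, given as a description of genes that share both libraries.

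The authors' FDR intervals, which do not depend on where a peak was drawn, gave a finer picture of the overlap at the TSSs. In 8 of the 10 genes every base open in replicate 2 within 1 kb of the main TSSs was also open in replicate 1, and in Btg2 and Junb 99.2% and 82.7% of them were. Read the other way, the share of the bases of replicate 1 that were open in replicate 2 ran from 43.0% at Dusp1 to 100% at Jun. It was 59.8% at Btg2, 72.3% at Fos, 75.8% at Egr1, 80.1% at Junb and 82.8% at Fosb. It was 85.1% at Jund, 86.4% at Ier2 and 92.5% at Fosl2. The promoters of Dusp1 and Btg2, among the tallest of replicate 1, were thus those with the smallest such shares, and the intervals of Fos overlapped although its peaks did not reach the limit. All these shares are given without the same shares over all genes. Replicate 1 had far more peaks, so whether such overlap is particular to these promoters was not tested.

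**Figure D1:**
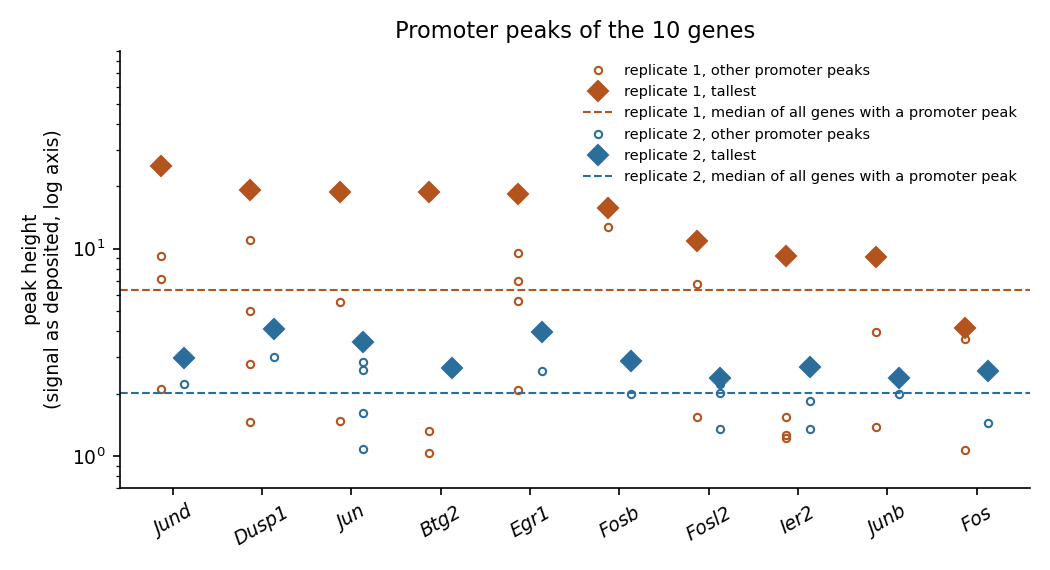
Height of every promoter peak of the 10 genes (log axis, signal as deposited), with replicate 1 left of replicate 2 for each gene, filled diamonds for the tallest peak and open circles for the others; dashed lines are the median of the tallest promoter peak over all genes that have one, 6.30 and 2.03. In replicate 1 all genes but Fos lie above the line, and in replicate 2 all 10 do.

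The second question was which sites around the genes were open. All 10 genes had a distal peak in each library, against 84% of all genes in replicate 1 and 40.1% in replicate 2. They had 7 to 17 distal peaks in replicate 1, with a median of 11 and a mean of 11.4 ± 3.98 (SD over the 10 genes), against a median of 4 and a mean of 4.93 over all protein-coding genes. In replicate 2 they had 2 to 5, with a median of 4 and a mean of 3.8 ± 1.14 (SD over the 10 genes), against a median of 0 and a mean of 0.826 over all genes. All 10 had at least 1 distal peak that both libraries shared, where 35.5% of all genes did. Counted on the peaks of replicate 1, the shared number was 3 or more at 6 of the 10, against 4.4% of all genes, and 4 at Fos, against 1.81% of all genes with 4 or more.

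In all, 25 distal peaks of the set were shared, a mean of 2.5 ± 0.972 per gene (SD over the 10 genes) against 0.567 over all genes. Between genes, the order of the distal counts did not carry over from one library to the other, with a Spearman correlation of -0.07 over the 10 genes. Fosb and Btg2 had 17 in replicate 1, the most, and 3 and 5 in replicate 2. Jund had 7 in replicate 1, the fewest together with Jun, and 5 in replicate 2, the most together with Fos and Btg2.

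A distal peak counts for every gene within 50 kb, so where genes lie close it can count for more than 1. Whether the counts follow gene density was not tested. Fos, Fosl2 and Jun had no other protein-coding gene within 50 kb, whereas Junb had 9, Fosb had 6, and Jund and Ier2 had 5 each. Counted only for the gene with the nearest TSS, a rule added after the data were seen, 62 distal peaks of replicate 1, 22 of replicate 2 and 17 of the 25 shared ones belonged to the set. By this count the mean of shared peaks was 1.7 in the set, against 0.238 over all genes, and 8 of the 10 genes kept at least 1, against 17.4% of all genes. Fosb and Jund had 0 by this count.

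The peak number of replicate 1 also matters. When only as many of its tallest peaks were taken as replicate 2 had, the set had 42 distal peaks in replicate 1, a mean of 4.2 against 1.02 over all genes. Of these, 15 were shared, a mean of 1.5 against 0.342 over all genes, and 8 of the 10 genes had at least 1, against 24.2% of all genes.

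**Figure D2:**
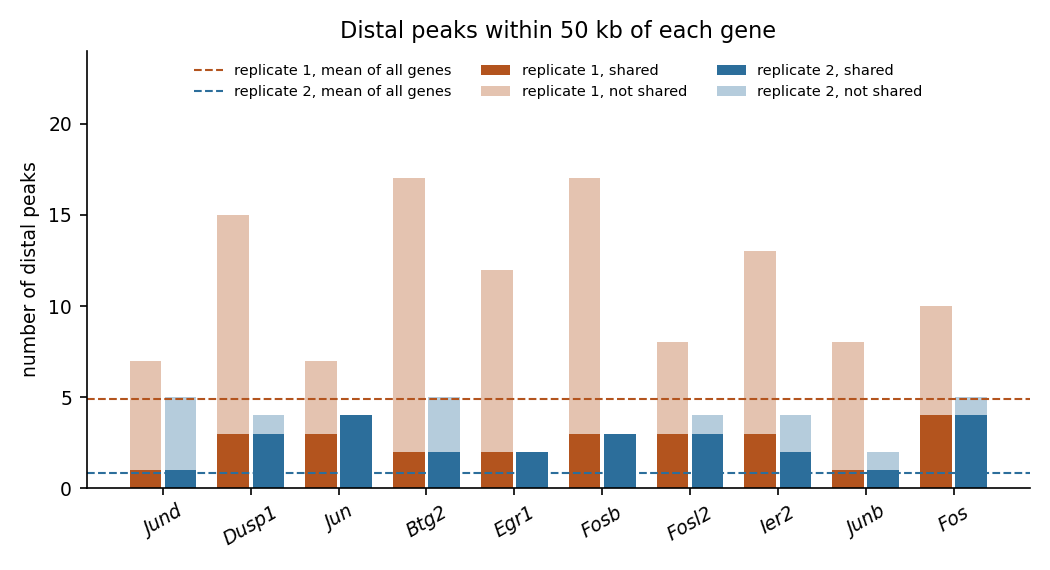
Number of distal peaks within 50 kb of each gene, replicate 1 left of replicate 2, with shared peaks in full colour, unshared ones pale and dashed lines for the mean over all protein-coding genes (4.93 and 0.826). Every gene of the set lies above the mean of all genes in both libraries, and the shared part is 1 to 4 peaks of replicate 1.

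Of the distal peaks of the set, 21.9% in replicate 1 (95% Wilson interval 15.3 to 30.4, counting error only) and 65.8% in replicate 2 (49.9 to 78.8) were shared. Over all distal peaks the shares were 7.96% and 70.5%. The genes were chosen by these same peaks, so the intervals are no test of the set against all distal peaks. Shared distal peaks of the set were taller, with a median of 3.66 against 1.84 for unshared ones in replicate 1, and 1.74 against 1.39 in replicate 2. Of the 89 unshared distal peaks in replicate 1, 29 held bases with an FDR of at most 0.05 in replicate 2, and 15 overlapped a peak of its longer list. Of the 13 unshared ones in replicate 2, 8 held such bases in replicate 1. These counts are given without the same counts over all unshared distal peaks. In replicate 1, 60 of the 114 distal peaks were intergenic, 31 intronic and 23 exonic.

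Counted on the peaks of replicate 1, Fos had the most shared distal peaks, 4, while on those of replicate 2 Jun had 4 as well. All those of Fos were intergenic with Fos as the nearest gene. Their common stretches were chr12:85437301-85437426, chr12:85455381-85455580 and chr12:85472280-85472380 upstream, and chr12:85486101-85486240 downstream, where the last starts before the common stretch to show the whole CArG box. They are printed in this order on the plus strand, with TGACG of either strand and the CArG box in capitals.
Fos distal 1: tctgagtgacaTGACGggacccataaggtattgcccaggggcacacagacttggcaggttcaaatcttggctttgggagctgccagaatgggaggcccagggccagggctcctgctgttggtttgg
Fos distal 2: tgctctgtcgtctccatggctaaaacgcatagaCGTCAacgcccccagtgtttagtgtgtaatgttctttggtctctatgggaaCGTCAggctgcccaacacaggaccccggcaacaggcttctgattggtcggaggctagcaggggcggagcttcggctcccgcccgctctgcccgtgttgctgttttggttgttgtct
Fos distal 3: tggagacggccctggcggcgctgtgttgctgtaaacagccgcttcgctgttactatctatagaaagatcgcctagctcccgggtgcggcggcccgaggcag
Fos distal 4: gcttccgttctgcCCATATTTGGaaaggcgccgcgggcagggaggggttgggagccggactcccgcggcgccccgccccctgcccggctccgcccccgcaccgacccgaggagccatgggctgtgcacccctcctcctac

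Distances are given from the nearest TSS of the gene to the nearest edge of the peak in replicate 1. The first Fos site, 36.4 kb upstream, had a height of 9.36 in replicate 1 and 0.943 in replicate 2, among the tallest 5.07% of peaks in replicate 1 but only within the tallest 79.8% in replicate 2. The second, 18.3 kb upstream, had 7.61 and 1.74. The third, 1.51 kb upstream, had 1.36 and 2.15, and was the one of these sites with a higher place in replicate 2, within the tallest 23.0% of peaks, than in replicate 1, within 44.4%. The last, 11.2 kb downstream, had 10.8 and 2.55, within the tallest 3.95% and 14.4%. In replicate 1 the first, the second and the last site were each taller than the Fos promoter, at 4.13. In replicate 2 the promoter, at 2.57, was about level with the last site, at 2.55, and above the other shared sites. An unshared peak of 2.56 in replicate 2, chr12:85454981-85455200, lay beside the second site.

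Beside the first site, replicate 1 had a further peak of 8.04 in an exon of Gm40477, 37.6 kb upstream of Fos. No peak of the shorter list of replicate 2 was shared with it, but its bases reached an FDR of 0.00346 there and a peak of the longer list overlapped it. The plot of FDR along the locus shows both libraries open at the same 4 places and around the TSS. Values were smaller in replicate 2 around the TSS and at the first, the second and the last site, while at the third site the highest -log10 FDR at Fos was 8.64 in replicate 1 and 8.30 in replicate 2.

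**Figure D3:**
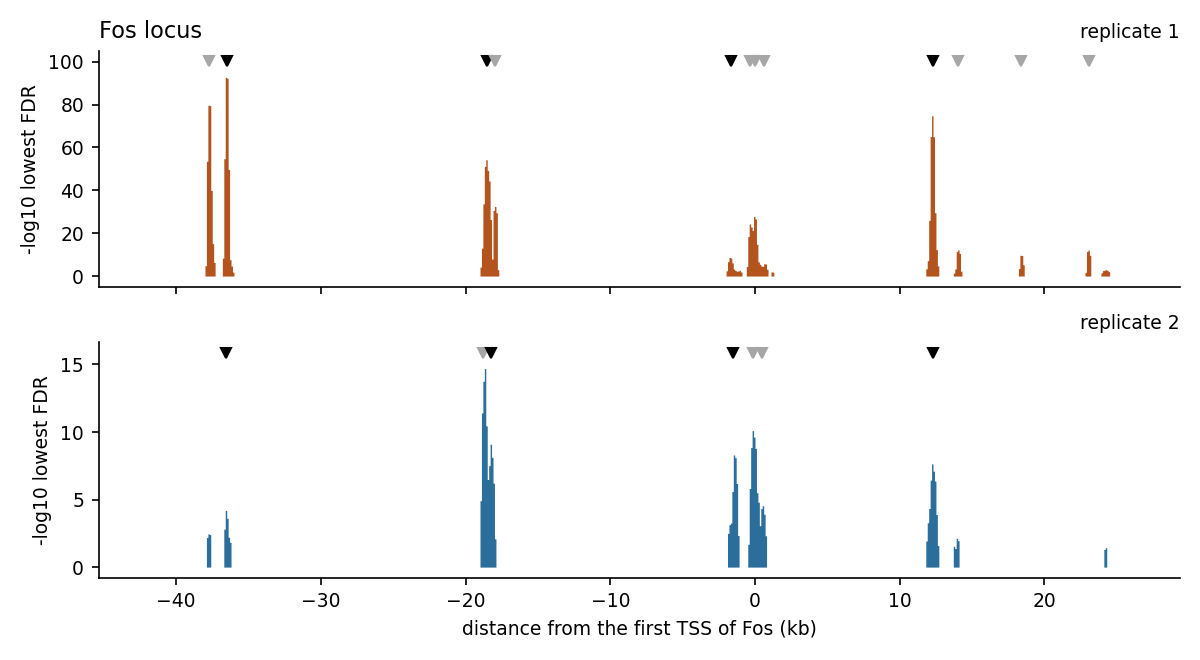
Lowest FDR in bins along the Fos locus, as -log10, against distance from the first Fos TSS (kb, upstream negative), replicate 1 above replicate 2 on different vertical scales; black triangles mark shared peaks and grey triangles the other peaks of the library. Both panels show the shared sites 36.4, 18.3 and 1.51 kb upstream and the downstream one, which lies 11.2 kb from the last Fos TSS and so somewhat farther out on this axis.

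Among the other Fos genes, Fosb shared 3 distal sites, of which the highest, chr7:19295921-19296080 with 11.1 in replicate 1 and 3.68 in replicate 2, lay in an exon of Rtn2. The other Fosb sites, with 5.38 and 3.37 and with 1.97 and 1.59, had Ercc1 as the nearest gene. A peak of 11.3 at chr7:19320041-19320260, nearest to Fosb, was called in replicate 1 alone, and 2.73% of its bases had an FDR of at most 0.05 in replicate 2. Fosl2 shared 3 low sites, with 1.07 and 1.53, 2.03 and 1.67, and 1.57 and 1.58, and the last pair of sites lay within 3 kb of its TSS. Just outside the 50 kb limit, 51300 bp from a Fosl2 TSS, another shared peak had 3.63 and 2.40, taller than any Fosl2 distal peak inside it. Just inside the limit were a Jund peak of 5.43 at 49329 bp, an Ier2 peak of 4.41 at 49549 bp and a Dusp1 peak of 1.06 at 49893 bp. Just outside it were a Btg2 peak of 0.961 at 50380 bp, an Egr1 peak of 0.436 at 50463 bp and a Fosl2 peak of 0.603 at 51027 bp. These were all in replicate 1 and unshared.

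In the Jun family, the shared site of Jun with the greatest height, chr4:95049981-95050160, had 7.89 and 1.63 and lay in the exon of Jun itself, 2.06 kb from the TSS. A second one in that exon had 2.12 in replicate 1 and met overlapping peaks of 1.34 and 1.20 in replicate 2. Jun is a gene of 1 exon, so these are sites within its transcribed body. The third Jun site, with 1.62 and 1.65, was nearest to Mysm1. Junb shared 1 small site in its own exon, with 0.949 and 1.40, at 1029 and 1001 bp from the nearest TSS and thus at the edge of the promoter limit. Jund shared 1 site, with 2.79 in both libraries, in an intron of Gm3336.

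Outside AP-1, Ier2 had the tallest distal peak of the set in replicate 1, 14.04, shared with a peak of 3.41 in replicate 2, at 1.11 kb upstream of its TSS. It lay among the tallest 2.26% and 5.44% of all peaks, while the Ier2 promoter lay among the tallest 5.17% and 12.2%. This site, chr8:84663981-84664180, is printed on the minus strand with the ETS core CCGGAAG in capitals.
Ier2 upstream: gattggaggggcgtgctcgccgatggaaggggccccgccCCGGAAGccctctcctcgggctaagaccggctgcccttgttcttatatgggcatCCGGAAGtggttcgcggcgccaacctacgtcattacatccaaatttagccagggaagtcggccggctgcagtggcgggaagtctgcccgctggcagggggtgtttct

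Both ETS matches of this site and a TGACG at 1208 bp from the TSS lay in footprints of both libraries. Footprints are short stretches that the authors called as protected from DNase I. Ier2 also shared a site with 4.54 and 1.75 farther upstream. A site in its exon with 1.32 and 1.84 fell outside the promoter limit in replicate 1, at 1032 bp, and inside it in replicate 2, at 912 bp. An Ier2 distal peak of 13.5 in replicate 1, in an intron of Cacna1a, lay next to a peak of 1.39 in replicate 2 that it did not overlap, but 97.9% of its bases had an FDR of at most 0.05 in replicate 2 as well.

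Egr1 shared 2 sites downstream of the gene, with 9.15 and 1.70 and with 1.24 and 2.05. Btg2 shared a site 13.8 kb upstream with 4.18 and 2.43, and a taller one with 6.68 and 3.28 in an intron of Chit1. Dusp1 shared 3 sites, with 2.85 and 1.46, 3.91 and 1.77, and 3.66 and 1.75, the last in an intron of Ergic1. Dusp1 is annotated with a second group of TSSs far upstream, beside the Ergic1 promoter, which extends the stretch searched for it. The nearer Btg2 site, chr1:134092961-134093160 on the minus strand, held the other distal CArG box of the set.
Btg2 upstream: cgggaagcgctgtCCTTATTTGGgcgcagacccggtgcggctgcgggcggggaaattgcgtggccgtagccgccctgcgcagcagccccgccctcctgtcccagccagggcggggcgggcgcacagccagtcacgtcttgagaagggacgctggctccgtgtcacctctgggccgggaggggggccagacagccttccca

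**Figure D4:**
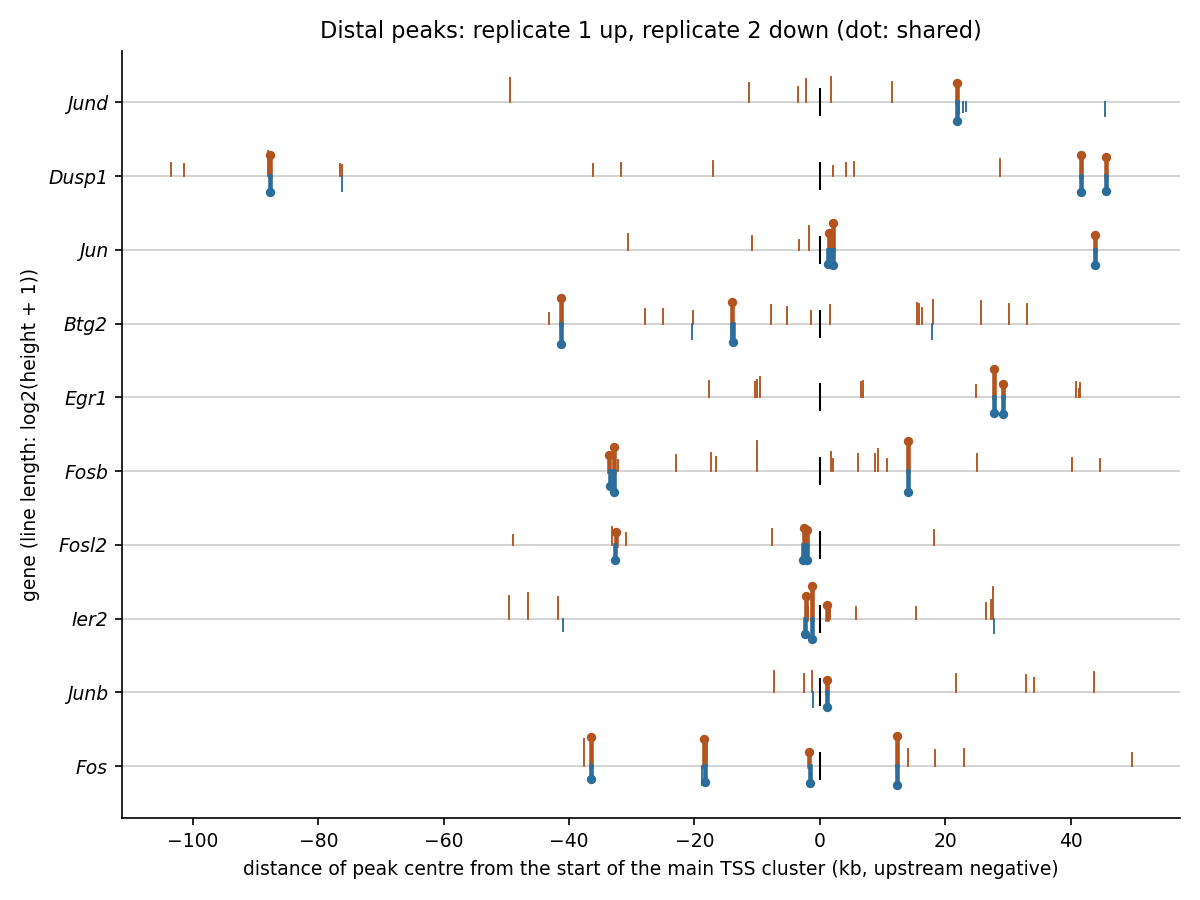
Position of each distal peak relative to the first TSS of the main TSS group of its gene (kb, upstream negative), with replicate 1 drawn up and replicate 2 down, line length growing with log2 of height plus 1, and thick lines with dots for shared peaks. Shared sites lie on both sides of Fos, Fosb, Dusp1 and Ier2, and the farthest peaks of Dusp1 belong to its upstream TSS group.

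Motifs were looked for on both strands in the 150 bp around the centre of each peak, which run past the edges of narrower peaks. The CArG box was found in 4 of 35 promoter peaks of the set in replicate 1, 11.4%, against 0.479% of all promoter peaks, and in 2 of 28 in replicate 2, 7.14%, against 0.427%. Those of replicate 2 were at Fosb and at Junb, where the box lay just outside the narrow peak of that library. Searched over whole peaks the box was in 6 of 35, 17.1% against 0.720%, and in 2 of 28, 7.14% against 0.982%. TGACG, which the CRE contains on both strands, was found in 17 of 35, 48.6% against 16.5% of all, and in 12 of 28, 42.9% against 16.0%. In distal peaks it was found in 17 of 114 in replicate 1, 14.9% against 6.73% of all distal peaks. The whole CRE was in the central part of 2 of 35 promoter peaks, 5.71% against 1.72%, and of 0 of 28, against 1.21%. Searched over whole peaks it was in 4 of 35 and 3 of 28.

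The motif of AP-1 itself, TGANTCA, gave no one direction. In the central 150 bp it lay above the share of all peaks in 2 of 4 comparisons and below it in the other 2. It was in 6 of 114 distal peaks in replicate 1, 5.26% against 4.48% of all distal peaks, and in 1 of 38 in replicate 2, 2.63% against 4.12%. In promoter peaks it was in 0 of 35, against 1.85%, and in 2 of 28, 7.14% against 1.75%. Searched over whole promoter peaks it was in 1 of 35, 2.86% against 2.71%, and in 4 of 28, 14.3% against 3.33%, so that 3 of 4 comparisons then lay above. These promoter peaks held only 2 distinct matches, at Fosl2 and Ier2. The 14.3% counts the single Fosl2 match once for each of several nested peaks of replicate 2. The members were known when these motifs were counted and peaks of neighbouring or nested calls share bases, so the shares are given without a test.

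**Figure D5:**
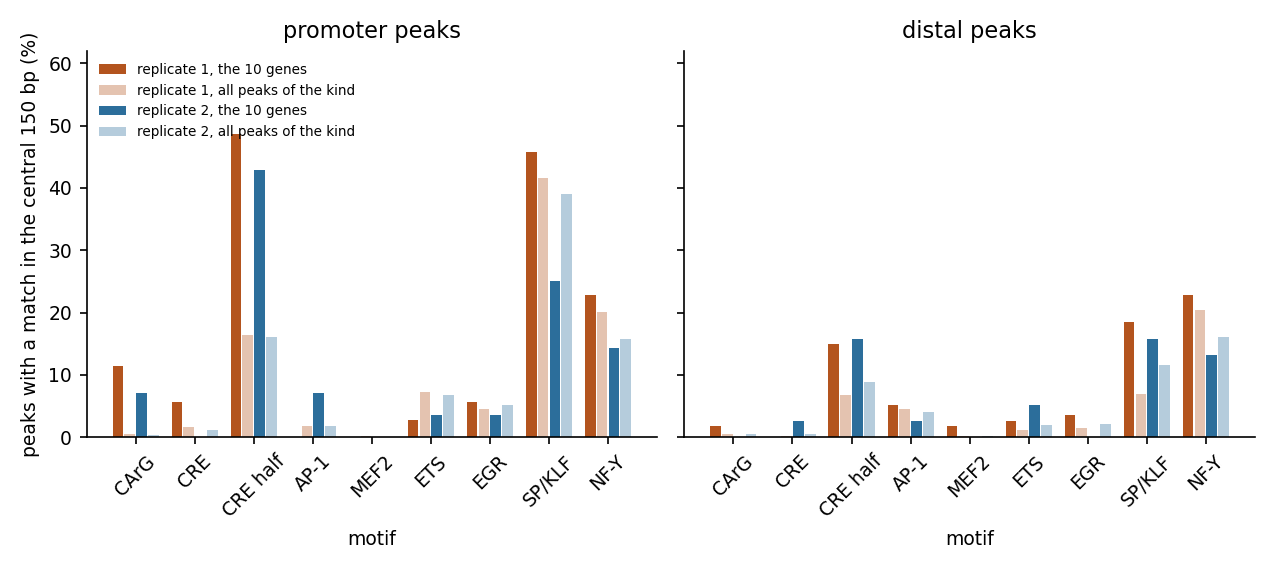
Share of promoter peaks (left) and distal peaks (right) with each motif in the central 150 bp (%), with the 10 genes in full colour left of all peaks of the kind in pale colour, for replicate 1 and then replicate 2. The central 150 bp run past the edges of narrower peaks, as at the Junb box counted in replicate 2. At promoters the CArG box (11.4% and 7.14% against 0.479% and 0.427%) and TGACG (48.6% and 42.9% against 16.5% and 16.0%) stand apart from the shares over all promoter peaks in both libraries.

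Within 500 bp of any TSS, whether open or not, Dusp1, Egr1, Fos, Fosb and Junb had a CArG box, 5 of 10 against 10.8% of all genes, and that of Dusp1 lay at its far TSS group. The CRE was there in 4 of 10, Btg2, Dusp1, Ier2 and Jund, against 4.84% of all genes, so that Dusp1 had both and Fosl2 and Jun had neither. TGACG was present in 10 of 10 against 63.4%, TGANTCA in 2 of 10 against 41.0%, and the MEF2 consensus at Jun alone, against 3.64% of all genes. Of the others searched, GGGCGG (SP/KLF) was in 10 of 10 against 68.1% of all genes, CCAAT (NF-Y) in 9 against 87.7%, and TATAAA in 4 against 58.8%. GGAATG (TEAD) was in 6 of 10 against 63.5%, CAGCTG (MyoD E-box) in 5 against 64.9%, and TTC and GAA with 3 bases between (STAT) in 4 against 47.3%. CCGGAAG (ETS) was in 2 of 10 against 26.7%, GCGTGGG (EGR) in 2 against 24.8%, and TTGGC and GCCAA with 5 bases between (NFI) in 0 against 0.196%. The stretch searched grows with the number of annotated TSSs of a gene, such as 1 at Jun and 6 at Dusp1. The shares over all genes are not matched for this number or for base composition.

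Footprints touched some of these matches. A match counted as in a footprint where it met one widened by 5 bp, so a match can meet one by position alone. All such placements, at the Ier2 site above too, are given without the same counts over all peaks. Whether they are more frequent at these genes than elsewhere was not tested. All 4 CRE matches of the promoters, at 201 bp upstream of the TSS in Btg2, 96 bp in Dusp1, 45 bp in Ier2 and 214 bp in Jund, lay in footprints of replicate 1, and that of Jund lay in footprints of both libraries. Such placement was common for the motifs with the most promoter matches. In replicate 1 it held for 19 of 38 TGACG, those within the CRE included, 20 of 44 GGGCGG and 5 of 14 CCAAT. In replicate 2 it held for 8, 11 and 3 of them. Of 9 CArG boxes in promoter peaks, 2 lay in footprints of both libraries, at Junb, 91 bp upstream of its second TSS, and at Egr1, 105 bp upstream of its second TSS. The CArG boxes of Fos, at 309 bp, and of Fosb, at 266 bp, lay in footprints of neither. At the last distal Fos site the CArG box lay in footprints of both, and that of the Btg2 site in neither.

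The MEF2 match of Jun, 33 bp upstream of the TSS, and the TATA boxes of Fos, 33 bp, and Junb, 30 bp upstream, were in footprints of both libraries. A footprint does not name the protein that made it, and a match is a match of letters. In shared distal pairs, 44.3% of the footprints of replicate 1 overlapped one of replicate 2 at these genes, against 55.7% over all shared distal pairs. Footprints per kb of peak were 15.2 in distal peaks of the set against 14.1 in all distal peaks in replicate 1, and 7.46 against 10.2 in replicate 2.

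Base composition bears on the promoter counts. When all genes were ranked into 3 equal classes by the ratio of observed to expected CpG from 250 bp upstream to 50 bp downstream of the TSS, 6 of the 10 genes were in the high class and 4, Fos, Ier2, Jun and Junb, in the middle one. Promoter peaks in both libraries were present at 86.5% of genes in the high class, 60.7% in the middle class and 5.70% in the low class. The 6327 high-class genes with promoter peaks in both libraries had a mean of 0.691 shared distal peaks, beside the mean of 2.5 at the 10 genes, and 5.44% of them had 3 or more.

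Other genes of the same kind were taken as 3 lists. Of 55 other immediate-early genes, 48 had promoter peaks in both libraries, 87.3% against 51% of all genes, and 7 in replicate 1 only. They had a mean of 1.64 shared distal peaks, with at least 1 at 35 of the 55 and 3 or more at 12. Among those open at the promoter in both libraries, the most were 12 at Per1, a clock gene that light induces in the brain, 7 at Zfp36l2, an mRNA decay factor, 7 at Ier5l and 4 at Spry2, an inhibitor of receptor tyrosine kinase signalling. Of 30 genes of the signalling that leads to immediate-early genes, 27 had promoter peaks in both, but the mean of shared distal peaks was 0.767, close to the 0.567 of all genes. Of the 27, Rps6ka3, a kinase of the ERK pathway, had the most, 4, and Camk2g, Mapk9 and Nfatc1 had 2 each. Of 14 other genes of the AP-1 family, 10 had promoter peaks in both, with a mean of 0.571 shared distal peaks and 0 genes with 3 or more, and Batf, a factor of lymphocytes, had a promoter peak in neither. Named from this list for their shared distal peaks were Atf3 with 2, and Atf2 and Mafk with 1 each.

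The genes outside these lists most like the median of the 10 in promoter height and distal count, by Euclidean distance over 4 values, were Cdca4, at 0.089, Fam102a, Alg2 and Sec61b, which share a promoter, and Mybbp1a. Of the 10 genes themselves, Ier2 was nearest to their median, at 0.270, with 37 genes of the genome at or within that distance. Junb was the farthest at 0.994, with 980 genes at or within it.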

How the data were processed

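The 10 genes, the lists and the motifs were chosen with earlier results of these data known. For each of the 2 libraries the authors deposited a shorter and a longer peak list, FDR intervals and footprints on mm10, made per the labels from the filtered alignments of that library alone. The sources used here name no aligner or caller. The deposited peak value is a signal in whole multiples of 0.00597 in replicate 1 and 0.0107 in replicate 2, from which a scaling to depth by the authors is inferred; read totals are not used here. The deposited intervals hold FDR values, which are p-values with the authors' correction, up to 0.05, and the deposited footprints hold the constant p-value 0.01 and so have no rank. The shorter lists were used, with TSSs of GENCODE M21 and sequence of GRCm38, and a motif was in a footprint where it met one widened by 5 bp. All 10 genes were named, then from each other list up to 4 genes open in both libraries with the most shared distal peaks, up to 4 open in neither, and the 5 genes closest to the set in log2(height + 0.01) and log2(count + 1). A gene that this rule named is not reported here. With 1 group and 2 libraries, no test was run, and intervals are Wilson intervals. Alternatives were the list, peak number, overlap, windows, TSS set, merging, height and each library alone. The code, in Python 3.11.15 with numpy 2.4.6, pandas 2.3.3, scipy 1.17.1, pysam 0.24.0 and matplotlib 3.10.9, was tested on simulated peaks.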

Additional observations from a re-analysis of the deposited data

How the results depend on the processing

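All alternatives left the count of genes with promoter peaks in both libraries, and with overlapping ones, within 1.5 times its value, though neither count can pass 10. The first stayed at 10. The second, 9 as reported, fell to 7 where the overlap had to be 50% of both peaks, and was 10 where 1 bp was enough. Distal counts moved with the windows and lists: with the longer lists there were 172 distal peaks in replicate 1 and 65 in replicate 2, 43 shared (4.3 per gene); with only as many of the tallest peaks of replicate 1 as replicate 2 had, 42 and 15 shared (1.5 per gene); with a 2 kb promoter window, 25 in replicate 2 and 16 shared (1.6 per gene). A 25 kb window gave 72, 24 and 14 shared (1.4 per gene), and a 100 kb window 178, 60 and 41 shared (4.1 per gene). Peaks above the median height of their list numbered 25 in replicate 2. Counted for the gene with the nearest TSS only, an alternative added after the data were seen, there were 62 and 22. Leaving out a library turns shared peaks into all peaks of the other, so their number ran from 38 to 114 and their mean per gene from 3.8 to 11.4. The other 63 such values stayed within 1.5 times. Motif counts in whole peaks moved in 8 of 16 cases, 4 for the CRE, 2 for AP-1 and 2 for the CArG box. No paired analysis was possible because there was 1 group. The counts of replicate 2 limit what can be shared, and a peak found in replicate 1 alone cannot be called closed in replicate 2.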
